A study of Mus musculus with 6 samples.

Results

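The transcripts described here encode 9 regulators of lipid synthesis: the transcription factors Srebf1, Srebf2, Mlxipl and Nr1h3, and the proteins Scap, Insig1, Insig2, Mbtps1 and Mbtps2, which hold back, escort or cut the SREBP proteins. They were chosen by gene symbol from the 22481 symbols of the deposited mRNA table, and all 9 were found there and passed the filter on low counts that left 11633 genes for testing. The livers came from male C57BL/6J mice, an inbred laboratory strain, aged 10 weeks. One group of 3 libraries came from mice with free access to food and the other group of 3 from mice fasted for 16 h, and values are given throughout in the order of libraries 1, 2 and 3. No transgene, deletion or drug is given in the labels, and it is not stated whether the libraries stem from separate mice, so p-values cover the spread among libraries, which may be technical.

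SREBPs are made as precursors in the membrane of the endoplasmic reticulum, where SCAP binds them. When membrane sterol is high, an INSIG protein keeps the SCAP and SREBP complex in place; when it is low, the complex moves to the Golgi, and the site-1 and site-2 proteases release the part that enters the nucleus. In liver, SREBP-1c, a product of Srebf1, is known for driving fatty acid synthesis after feeding, SREBP-2 for cholesterol synthesis and uptake, ChREBP, the product of Mlxipl, for the response to carbohydrate, and LXR alpha, the product of Nr1h3, for the response to oxysterols. Processing of SREBP and ChREBP proteins is not seen in RNA, and the table sums all transcripts of a gene, so that SREBP-1a and SREBP-1c were not told apart.

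The promoter windows shown are those of the pairs chosen for contrast, Srebf1 with Srebf2 and Insig1 with Insig2. Srebf1, Srebf2 and Insig1 were lower, and Insig2 higher, in every fasted than in every fed library. Mbtps1 was also lower in every fasted library, and 29.0% of all genes had groups that did not overlap. The windows are those of RefSeq on GRCm38.p6 and run from 250 bases before to 50 bases after an annotated start. All 9 genes matched, with 16 windows in all, 3 of them for Srebf1 and 3 for Insig2. Of the windows of the 4 contrasted genes, those with at least 3 matches to the motifs searched are printed. A window of Mlxipl is added for its sterol element. Capitals mark matches on either strand to the sterol element TCACNCCAC, the E-box CACGTG, the CCAAT box CCAAT and the Sp1 box GGGCGG. The windows lie at chr11:60220578-60220877 (minus strand) and chr11:60210422-60210721 (minus) for Srebf1, chr15:82147019-82147318 (plus) for Srebf2, chr5:28071162-28071461 (plus) for Insig1, chr1:121332540-121332839 (minus) for Insig2 and chr5:135106641-135106940 (plus) for Mlxipl, in that order.
Srebf1, middle start: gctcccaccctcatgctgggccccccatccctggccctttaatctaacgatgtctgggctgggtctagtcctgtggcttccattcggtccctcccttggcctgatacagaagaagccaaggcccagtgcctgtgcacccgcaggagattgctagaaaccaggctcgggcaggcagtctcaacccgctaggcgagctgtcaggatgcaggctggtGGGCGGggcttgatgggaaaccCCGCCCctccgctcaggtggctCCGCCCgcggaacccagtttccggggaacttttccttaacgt
Srebf1, downstream start: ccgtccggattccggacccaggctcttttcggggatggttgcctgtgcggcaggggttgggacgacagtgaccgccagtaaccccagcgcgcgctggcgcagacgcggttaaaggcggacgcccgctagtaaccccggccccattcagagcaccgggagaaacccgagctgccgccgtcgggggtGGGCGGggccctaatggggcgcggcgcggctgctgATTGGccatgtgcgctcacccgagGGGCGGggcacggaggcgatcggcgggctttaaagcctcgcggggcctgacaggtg
Srebf2: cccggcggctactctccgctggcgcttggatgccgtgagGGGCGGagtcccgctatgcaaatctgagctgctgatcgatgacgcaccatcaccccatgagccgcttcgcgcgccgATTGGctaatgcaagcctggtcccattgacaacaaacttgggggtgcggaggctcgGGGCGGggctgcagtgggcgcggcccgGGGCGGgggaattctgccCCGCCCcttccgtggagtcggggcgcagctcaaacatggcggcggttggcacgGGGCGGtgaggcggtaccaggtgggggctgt
Insig1: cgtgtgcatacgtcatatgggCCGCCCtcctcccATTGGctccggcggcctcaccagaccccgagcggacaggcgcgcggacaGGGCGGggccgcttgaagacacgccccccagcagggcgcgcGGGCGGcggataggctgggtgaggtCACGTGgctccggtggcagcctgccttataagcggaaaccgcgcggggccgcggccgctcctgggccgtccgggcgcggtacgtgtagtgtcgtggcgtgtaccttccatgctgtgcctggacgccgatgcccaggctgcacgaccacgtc
Insig2, upstream start: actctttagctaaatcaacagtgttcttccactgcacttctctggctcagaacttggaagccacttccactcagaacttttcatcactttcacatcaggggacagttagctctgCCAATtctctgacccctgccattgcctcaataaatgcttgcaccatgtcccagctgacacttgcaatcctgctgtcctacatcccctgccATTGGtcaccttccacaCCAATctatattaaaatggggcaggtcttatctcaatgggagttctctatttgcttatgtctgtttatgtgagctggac
Mlxipl, downstream start: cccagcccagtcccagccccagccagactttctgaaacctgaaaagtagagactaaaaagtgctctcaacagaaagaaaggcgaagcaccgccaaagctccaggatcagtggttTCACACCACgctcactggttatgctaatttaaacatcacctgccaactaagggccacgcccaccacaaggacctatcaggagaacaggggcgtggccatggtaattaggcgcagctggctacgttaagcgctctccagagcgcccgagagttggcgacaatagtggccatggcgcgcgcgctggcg

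A sterol element was matched in 1 of the 16 windows, that of Mlxipl, and in 1.24% of all 32851 windows. This exact motif was matched in only 1 of 15 windows of genes known as SREBP-2 targets, so a missing match does not show that a site is lacking. An E-box was matched in 4 of the 16 windows, among them Insig1, and in 7.15% of all windows. The 4 windows belong to 3 genes, since the 2 overlapping windows of Scap hold the same site. CCAAT boxes were matched in 6 of the 16 windows against 37.4% of all, and Sp1 boxes in 10 of the 16 against 35.7%. The DR4 motif of LXR, AGGTCA repeated after 4 bases, was matched in 0 of the 16 windows and in 0.0152% of all. Only this exact repeat was searched, and it is so rare that 0 of 16 cannot tell whether LXR sites are lacking. Windows of a gene can overlap, as those of Scap and Nr1h3 do, and a match is a stretch of letters, not a shown binding site.

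Of the 9 regulators, Insig1 fell in fasted livers and the other 8 did not pass the test, which was the quasi-likelihood test of edgeR with Benjamini-Hochberg adjustment over all genes tested and a threshold of 0.05. The 1 call among 9 stands against 2.52% of all genes tested. At an unadjusted p under 0.05 there were 4 of 9, namely Srebf1, Srebf2, Insig1 and Insig2, against 21.8% of all genes. Fed and fasted libraries did not overlap for 5 of the 9, against 29.0% of all genes. Of these, 4 were lower and 1 higher in fasted livers, against 13.7% lower and 15.3% higher over all genes. The share of all genes called was 8.15% in DESeq2, 1.32% on FPKM with limma, 4.21%, 0.111% and 6.34% when fed library 1, 2 or 3 was left out, and 0.276%, 0.0252% and 0.251% when fasted library 1, 2 or 3 was. Member calls under those settings below stand against these shares. The median log2 fold change of the 9 was -0.26, and that of all genes was -0.02. In bulk tissue, fewer cells that hold a transcript and less of it per cell cannot be told apart.

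Depth and library differences bear on every value. The rescaled counts came to a total between 11158002 and 14771817 per library, and 3 counts corresponded to 0.186 to 0.291 CPM (counts relative to the scaled library total). Hepatocyte markers were high in each library, except that Alb was listed at 0 in fed library 2, a doubtful value. Fed libraries 1 and 3 both stood apart in the 13 acute phase transcripts, which the liver makes in inflammation. These summed to 293173 CPM in fed library 3, the highest of the 6, and to 44625 CPM in fed library 1, the lowest. Fed library 2 had 172162 CPM and the fasted libraries 73834 to 151768 CPM. In chi-square per degree of freedom over tested genes, fed libraries 2 and 3 were the closest fed pair (148). Fed library 1 differed from them by 288 and 419, and from the fasted libraries by only 164 to 204. Fed libraries 2 and 3 differed from the fasted libraries by 195 to 293 and 214 to 373. Pairs of fasted libraries differed by 16.9 to 56. Distances within the fed group (148 to 419) were thus as large as those between the groups (164 to 373). Of the 4 cholangiocyte markers, Sox9 was at 39.3 CPM in fed library 3 and 1.21 to 4.72 CPM in the other 5 libraries, while Krt19, Krt7 and Epcam, which mark the type more narrowly, were each at 0 to 0.914 CPM in all 6. Neutrophil markers summed to 5.93, 130 and 78.2 CPM with food and 18.4 to 73.7 CPM after fasting. None of the 13 acute phase transcripts, nor any tested marker of other cell types, was called, and their part in the results below was not tested.

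**Figure D1:**
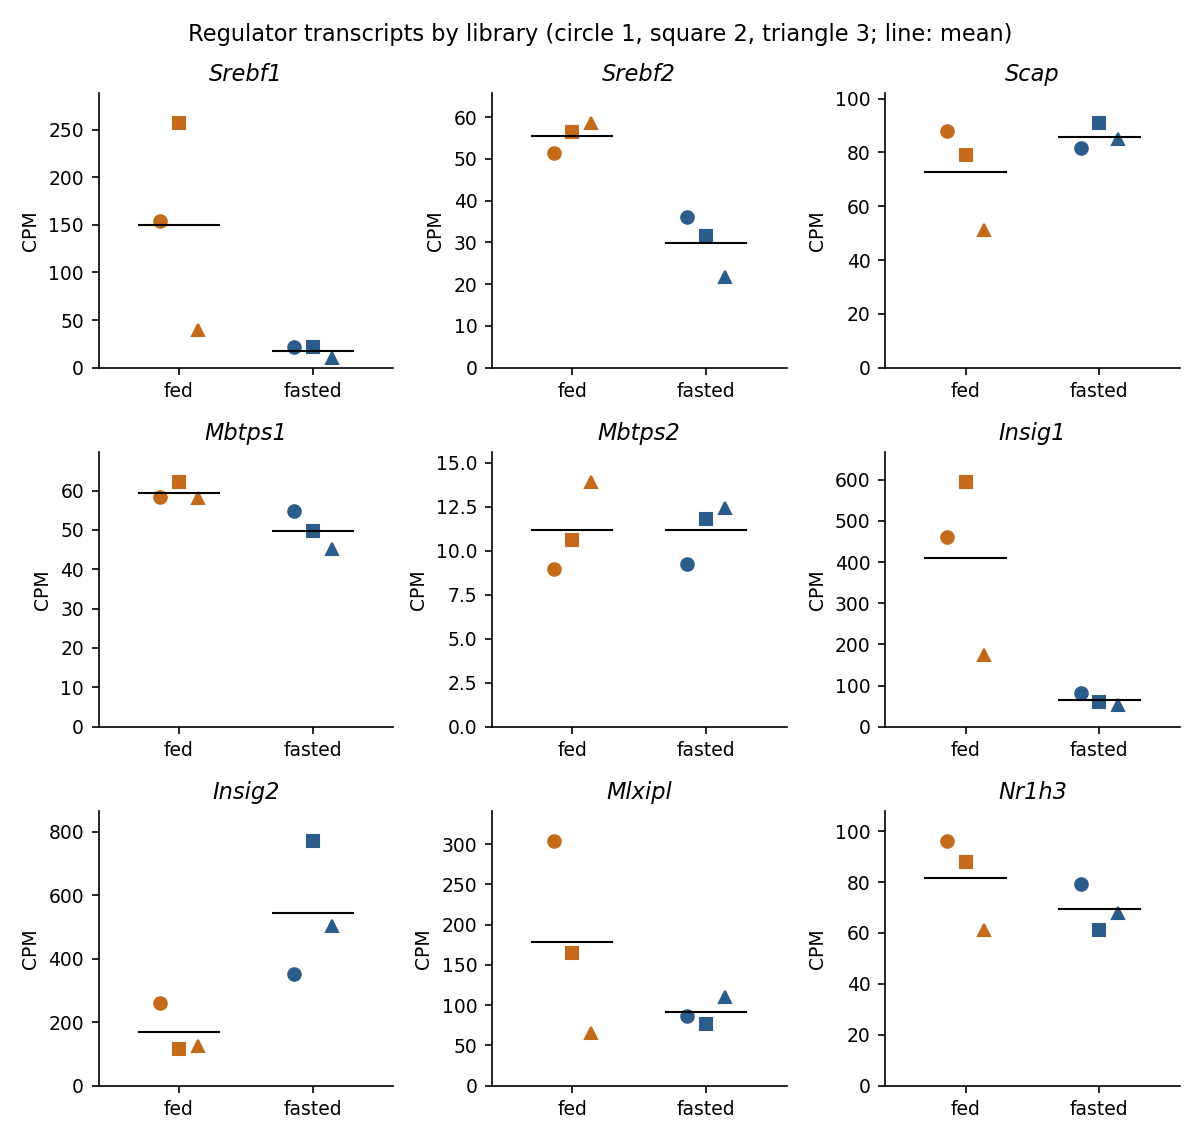
CPM of the 9 regulators in each library, on a linear axis from 0. Circles, squares and triangles are libraries 1, 2 and 3 and the line is the mean of the group. In Srebf1, Insig1, Mlxipl and Scap the triangle of fed library 3 is the lowest fed point, while in Srebf2 it is the highest.

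Srebf1, which encodes SREBP-1a and SREBP-1c, was measured at 154, 257 and 39.6 CPM with food and at 21.6, 21.3 and 10.6 CPM after fasting. Every fasted value lay below every fed value, but fed library 3 was nearer to the fasted libraries than to the other fed libraries. The estimated log2 fold change was -3.08 (SE 0.65), an 8.44-fold lower level, and it missed the threshold in edgeR (adjusted p = 0.0583). Without fed library 3 Srebf1 passed (log2 fold change -3.53, edgeR adjusted p = 0.00433), as it did in DESeq2 with all libraries (adjusted p = 2.91e-06). The gene (ENSMUSG00000020538) lies on chromosome 11 at 60199089 to 60222581 of GRCm38, on the minus strand. Its exons share 109 of 5634 bases with Rai1 on the opposite strand, and the table lists both genes under a single locus. Rai1 has a row of its own, at 12.7 to 18.1 CPM in all 6 libraries.

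Srebf2, which encodes SREBP-2, was at 51.5, 56.3 and 58.6 CPM with food, and its fasted values were 36.0, 31.6 and 21.7 CPM. The fed libraries lay within 1.14-fold of each other, against 6.47-fold for Srebf1, and fed library 3 was the highest of them. The estimated log2 fold change of -0.90 (SE 0.20) is 1.86-fold lower and missed the threshold in edgeR (adjusted p = 0.0619). DESeq2 called it (adjusted p = 0.00385). The gene (ENSMUSG00000022463) lies on chromosome 15 at 82147181 to 82205379, on the plus strand, and holds Mir33 without sharing exonic bases with it.

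The contrast of Srebf1 with Srebf2 was taken as a log2 ratio of CPM within each library, which does not depend on how libraries are scaled to each other. The ratio was 1.58, 2.18 and -0.56 with food and -0.74, -0.57 and -1.03 after fasting. Its mean was 1.07 ± 1.44 in fed and -0.78 ± 0.23 in fasted livers (SD, n = 3 each), a change of -1.85. An exact permutation test over the 6 libraries gave p = 0.1 (two-sided), the smallest p that 3 against 3 libraries allow. Fed library 3 lay at the edge of the fasted range, and without it the change was -2.66. Per transcript length, in FPKM (fragment counts scaled by transcript length and library total), Srebf1 made up 82.7%, 87.4% and 51.5% of the sum of both genes with food and 50.4%, 56.7% and 44.1% after fasting. On that scale the groups overlapped (exact permutation p = 0.2 for the ratio with a pseudocount of 1). Srebf1 was well above Srebf2 in fed libraries 1 and 2 only.

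Insig1, an anchor of the SCAP and SREBP complex whose own gene is an SREBP target, was the only regulator called. It was at 461, 595 and 173 CPM with food, and the fasted libraries held 82.1, 61.0 and 52.3 CPM. The groups did not overlap, and fed library 3, the lowest of its group, was 2.1-fold above the highest fasted library. Insig1 fell 6.29-fold, from 410 ± 216 to 65.1 ± 15.3 CPM (SD, n = 3 each), with a log2 fold change of -2.65 (SE 0.45, edgeR adjusted p = 0.0344). The call was lost without fed library 2 (adjusted p = 0.117), without fasted libraries 1, 2 or 3 (0.107, 0.172 and 0.16) and on FPKM with limma (0.0571), with log2 fold changes from -2.85 to -2.31 in these settings. The gene (ENSMUSG00000045294) lies on chromosome 5 at 28071363 to 28078662, on the plus strand, and overlaps no other annotated gene.

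Insig2, the second anchor protein, was at 261, 117 and 126 CPM with food and stood at 352, 771 and 504 CPM after fasting. Every fasted value lay above every fed value, with fasted library 1 being 1.35-fold above fed library 1. In mouse liver, insulin is known to lower a transcript of this gene called Insig2a. The estimated log2 fold change was 1.69 (SE 0.41), a 3.23-fold higher level, which missed the threshold in edgeR (adjusted p = 0.0797). It passed without fed library 1 (log2 fold change 2.13, edgeR adjusted p = 0.0243) and in DESeq2 with all libraries (adjusted p = 0.000762). The gene (ENSMUSG00000003721) lies on chromosome 1 at 121304353 to 121332589, on the minus strand.

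The second contrast was that of the INSIG genes. The log2 ratio of Insig1 to Insig2 was 0.82, 2.35 and 0.46 with food and -2.10, -3.66 and -3.27 after fasting. The means were 1.21 ± 1.0 and -3.01 ± 0.81 (SD, n = 3 each), a change of -4.21 or 18.6-fold, and the exact two-sided permutation p was 0.1, again the smallest possible. The gap between the nearest fed and fasted libraries was 2.55, larger than the spread of 1.89 among the fed libraries. Leaving out any single library moved the change only between -4.67 and -3.65. In FPKM, Insig2 made up 47.7%, 23.5% and 59.4% of the sum of both genes with food, and after fasting its share was 87.5%, 95.7% and 93.8%. The sum itself overlapped between groups, at 344, 289 and 142 FPKM with food and 219, 482 and 303 FPKM after fasting.

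**Figure D2:**
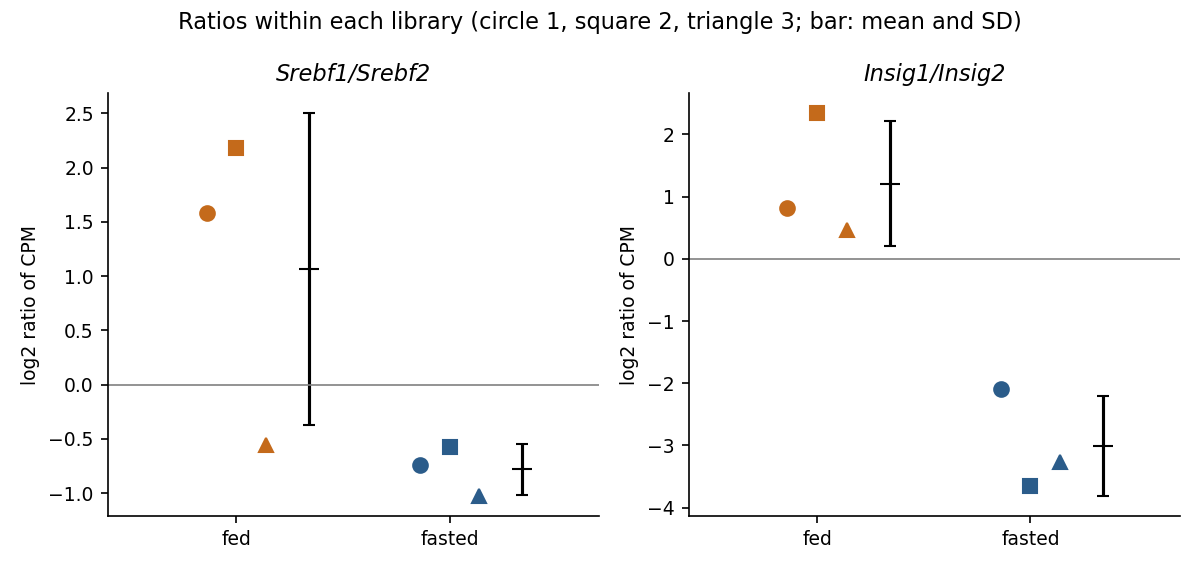
Log2 ratio of CPM within each library for Srebf1 over Srebf2 (left) and Insig1 over Insig2 (right). Points are libraries, with the triangle for library 3, and bars give the mean and SD of 3 libraries. Fed library 3 lies at -0.56 in the left panel, beside the highest fasted value of -0.57, while in the right panel the lowest fed value is 0.46 and the highest fasted value -2.10.

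Scap, the escort of the SREBPs, was at 88.0, 79.1 and 51.2 CPM with food and at 81.6, 91.0 and 85.1 CPM after fasting. The groups overlapped, with fed library 3 lowest of all 6, and the log2 fold change of 0.24 (SE 0.21) did not pass in edgeR (adjusted p = 0.552). Its exons share 985 of 7443 bases with 5830462I19Rik on the opposite strand, which the table lists at 0 to 0.0914 CPM. Scap (ENSMUSG00000032485) lies on chromosome 9 at 110333288 to 110384950.

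Mbtps1, the site-1 protease that makes the first cut, varied little. It was at 58.3, 62.2 and 58.0 CPM with food and 54.7, 49.6 and 45.1 CPM after fasting. The groups did not overlap, by a margin of 1.06-fold, and the log2 fold change of -0.26 (SE 0.13) did not pass (edgeR adjusted p = 0.304). Mbtps2, the site-2 protease that makes the second cut inside the membrane, was the least abundant of the 9, at 8.96, 10.6 and 13.9 CPM with food and 9.23, 11.8 and 12.4 CPM after fasting. Its groups overlapped and the fasted level was 0.999-fold the fed level (log2 SE 0.22, edgeR adjusted p = 0.996). Yy2 lies within Mbtps2 on the same strand and shares 2867 of its 10105 exonic bases, so the split of reads between them is uncertain, but Yy2 was listed at 0.291 to 1.68 CPM. Mbtps1 (ENSMUSG00000031835) lies on chromosome 8 at 119508156 to 119558735 and Mbtps2 (ENSMUSG00000046873) on chromosome X at 157535371 to 157598715.

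Mlxipl, which encodes ChREBP, was at 304, 165 and 65.0 CPM with food and at 86.2, 76.4 and 110 CPM after fasting. Fed libraries 1 and 2 lay above all fasted libraries and fed library 3 below all of them. The log2 fold change of -0.97 (SE 0.49) did not pass in edgeR (adjusted p = 0.301). Without fed library 3 it was -1.37 and passed (edgeR adjusted p = 0.035), and without fed library 1 it was -0.36 (0.596), so the call and the size depend on these libraries. The fed libraries spanned 4.68-fold and the fasted libraries 1.44-fold. Mlxipl (ENSMUSG00000005373) lies on chromosome 5 at 135089890 to 135138382 and shares 235 of 5538 exonic bases with Gm43500 on the opposite strand.

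Nr1h3, which encodes LXR alpha, was at 96.2, 87.8 and 61.3 CPM with food and 79.1, 61.2 and 67.7 CPM after fasting. The groups overlapped and the log2 fold change of -0.24 (SE 0.20) did not pass in edgeR (adjusted p = 0.533). Kupffer cells, the macrophages of the liver, also express Nr1h3. The 8 macrophage markers, of which none was at 0 in every library and none was called, summed to 431 to 576 CPM in fed and 425 to 633 CPM in fasted libraries, and their part in the Nr1h3 values was not tested. Nr1h3 (ENSMUSG00000002108) lies on chromosome 2 at 91184061 to 91202834.

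**Figure D3:**
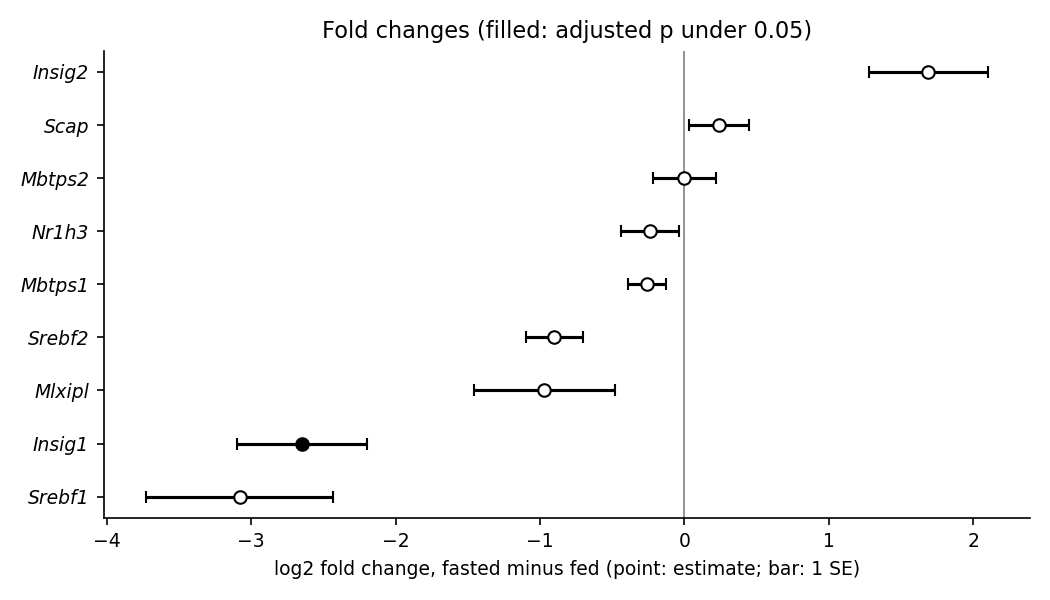
Log2 fold changes of the 9 regulators, fasted minus fed, from edgeR. Points are estimates from 3 against 3 libraries, bars are 1 SE, and the filled point marks an adjusted p under 0.05. Insig1 (-2.65) is filled, Srebf1 (-3.08) has the lowest estimate and the widest bar, and Insig2 (1.69) lies farthest to the right.

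Levels of different genes were compared per transcript length. In fed livers the mean FPKM was 153 ± 85.1 for Insig1, 106 ± 51.4 for Insig2, 62.6 ± 45.2 for Mlxipl, 48.4 ± 14.9 for Nr1h3 and 45.8 ± 32.9 for Srebf1 (SD, n = 3 each). Below them came Scap at 17.6 ± 5.98, Mbtps1 at 13.5 ± 1.25, Srebf2 at 10.6 ± 0.359 and Mbtps2 at 2.64 ± 0.513 FPKM. Each of the 6 highest overlapped its next lower neighbour, and only Mbtps1 over Srebf2 and Srebf2 over Mbtps2 were separated in all 3 libraries. In fasted livers Insig2 came first at 312 ± 137 FPKM and did not overlap Nr1h3, the next, at 37.9 ± 4.62. Mlxipl followed at 31.3 ± 5.56, then Insig1 at 22.3 ± 4.55 and Scap between 18.8 and 20.6, each overlapping its neighbour above. Mbtps1 (10.7 ± 0.682), then Srebf1 (5.67 ± 2.19) with Srebf2 (5.34 ± 1.15), and last Mbtps2 (2.26 ± 0.487) were separated from each other, except that Srebf1 and Srebf2 overlapped.

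Fed library 3 was the lowest fed library for 6 of the 9, namely Srebf1, Scap, Insig1, Mbtps1, Mlxipl and Nr1h3, and for 39.4% of all genes tested. Its log2 CPM minus the mean of fed libraries 1 and 2 had a median of -0.58 over the 9 and 0 over all genes. Among the targets described next, fed library 3 was lowest for 12 of 13 SREBP-1c targets and 11 of 12 ChREBP targets but for 12 of 21 SREBP-2 targets, with medians of -1.1, -1.1 and -0.22. These counts describe that library and carry no test.

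Genes known as targets or partners of these regulators were read in the same fit. No gene was placed in more than a single list, although regulators can share targets. A change within a list was therefore not assigned to its regulator alone. The 21 SREBP-2 targets, genes of cholesterol synthesis and uptake, were all tested, and 18 fell and 0 rose, against 1.11% of all genes lower and 1.41% higher. Their median log2 fold change was -2.37, and all 21 had groups that did not overlap, each lower in fasted livers, against 13.7% of all genes. Dhcr7, the reductase of the last step of cholesterol synthesis, fell 5.53-fold, from 103, 137 and 98.5 CPM to 18.9, 21.7 and 20.6 CPM (edgeR adjusted p = 0.00452). Hmgcs1, Lss, Nsdhl and Msmo1, which make HMG-CoA, lanosterol and its demethylated products, fell 10.7-fold, 5.16-fold, 9.32-fold and 8.54-fold. Sc5d, a desaturase of the pathway, did not pass, with a log2 fold change of -1.42 (SE 0.40, edgeR adjusted p = 0.108). Of the 21, 5 passed without fed library 2, 7 without fasted library 1 and 0 without fasted library 2. Without strand information on the counting, Hmgcs1 and Lss, and likewise Elovl6, Me1, Mid1ip1, Pklr, Abcg8, Pltp, Lpcat3, Mlxip and Rnf139 below, are uncertain to the extent that a gene on the opposite strand overlaps them. Pnpla3 and Rnf139 also overlap a gene on the same strand.

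The SREBP-1c list, genes of fatty acid and triglyceride synthesis, had 13 of 14 members tested, of which 5 fell and 0 rose, against 1.11% of all genes lower and 1.41% higher, with a median log2 fold change of -1.25. Elovl6, which lengthens palmitate, fell 6.81-fold, from 94.8 ± 36.8 to 13.9 ± 1.97 CPM (SD, n = 3 each, edgeR adjusted p = 0.0138). Fasn, which builds palmitate, fell 7.59-fold, from 353, 348 and 122 to 45.3, 37.1 and 26.1 CPM (edgeR adjusted p = 0.0247). Acly, which makes acetyl-CoA from citrate, fell 2.55-fold and Acaca 2.37-fold. Fads1, a desaturase of polyunsaturated fatty acids, was next at a log2 fold change of -0.90 (adjusted p = 0.0952). Me1 and Fads2 had the highest p, 0.571 and 0.958. Pnpla3, a lipid droplet protein, did not pass the filter, at 5.22, 6.46 and 0.168 CPM with food and 0.291, 0.64 and 0.173 CPM after fasting. With all libraries, 10 of 13 had an unadjusted p under 0.05, against 21.8% of all genes, of which 9 were lower in fasted livers, and DESeq2 called 8. Of the 13, 0 passed in edgeR when fed library 2 or a single fasted library was left out, and 11 passed without fed library 3.

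The ChREBP list, genes of sugar use and of lipogenesis, split. Of 12 tested members 1 rose, against 1.41% of all genes, and 0 fell, 6 estimates lay above 0 and 6 below, and the median was 0. Txnip, which encodes a binding protein of thioredoxin that rises with glucose in many cells, rose 2.49-fold, from 44.5, 32.1 and 30.8 CPM to 104, 75.8 and 87.8 CPM (edgeR adjusted p = 0.0266). Thrsp, a lipogenic regulator, was at 367, 130 and 16.7 CPM with food and 13.8, 12.2 and 9.95 CPM after fasting and did not pass (0.0848). Mid1ip1, a partner of acetyl-CoA carboxylase, had a log2 fold change of -2.49 (0.0523), Pklr, the liver pyruvate kinase, -1.54 (0.136) and G6pc, which releases glucose, 1.30 (0.196). Khk and Slc2a2 had the highest p, 0.71 and 0.895. Txnip overlaps Gm15441 on the opposite strand, and its call was lost without fed library 2, without each of the fasted libraries and on FPKM with limma.

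No LXR target was called in edgeR. Of 10 tested, 0 rose and 0 fell, with 3 at an unadjusted p under 0.05, all higher in fasted livers, and 1 called by DESeq2. The 3 of 10 lie near the 21.8% of all genes at that unadjusted p. Mylip, a ubiquitin ligase of the LDL receptor, was lowest in p, at 6.84, 9.01 and 15.1 CPM with food and 18.3, 23.5 and 20.9 CPM after fasting (log2 fold change 1.02, SE 0.29, edgeR adjusted p = 0.106). Smpdl3a, Pltp, Lpl, Abcg8 and Abca1 followed with adjusted p from 0.122 to 0.404. Abcg1 and Lpcat3 had the highest p, 0.542 and 0.96. Abca1, a cholesterol exporter, was at 170, 279 and 512 CPM with food and 184, 247 and 203 CPM after fasting. Cyp7a1, named after its values were seen, the rate-limiting enzyme of bile acid synthesis, spanned 0.336 to 163 CPM in the fed libraries, with fed library 3 lowest, and was at 216, 156 and 214 CPM after fasting.

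Of 25 partners, transport proteins, ubiquitin ligases and cofactors, all tested, 0 rose and 0 fell in edgeR. Over all genes 1.41% were called higher and 1.11% lower, so 0 of 25 does not set the list apart. An unadjusted p under 0.05 was found for 3, and DESeq2 called 1. The 3 of 25 are a smaller share than the 21.8% of all genes at that unadjusted p. The median log2 fold change was 0.09. Erlin1, a membrane protein of the endoplasmic reticulum, came nearest, at 55.4, 83.5 and 59.1 CPM with food and 34.8, 33.8 and 37.6 CPM after fasting (log2 fold change -0.90, SE 0.18, edgeR adjusted p = 0.0531). Nr1h2, the second LXR gene, had a log2 fold change of 0.48 (0.0952), and Mlxip, a relative of Mlxipl, 0.75 (0.16). Nfyc, Rnf139 and Nfyb had adjusted p of 0.256, 0.276 and 0.296. Sar1b and Nfya had the highest p, 0.946 and 0.952.

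**Figure D4:**
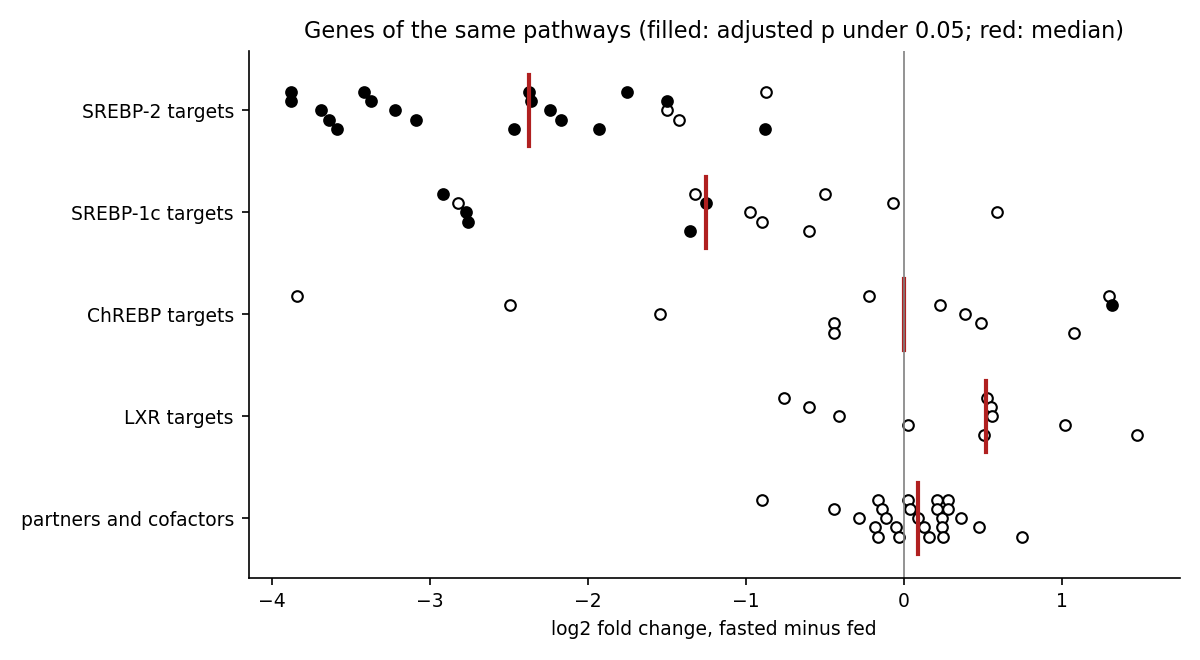
Log2 fold changes, fasted minus fed, of tested genes in 5 lists of targets and partners. Each circle is a gene, filled where the edgeR adjusted p is under 0.05, and the red line is the list's median, which lies at -2.37 for SREBP-2 targets, -1.25 for SREBP-1c targets, 0 for ChREBP targets, 0.52 for LXR targets and 0.09 for partners and cofactors.

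The genes whose pattern over the 6 libraries was most like that of each contrasted regulator were found among 7655 tested genes with a mean of at least 100 counts, other regulators left out. Likeness was the root mean square difference of log2 CPM after centring each gene, so a small value means a close pattern, and it uses the same libraries as the comparison and carries no test. Fasn (0.38), Mid1ip1 (0.45) and Aqp8 (0.54), a water channel, lay closest to Srebf1, against a median of 1.68 over genes. Fasn (0.21), Mid1ip1 (0.21) and Ly6a (0.32), a surface antigen, lay closest to Insig1, and Srebf1 itself lay at 0.37 from Insig1. Serpina1e (0.07), a protease inhibitor with near-identical copies among which reads can be split, Dtx4 (0.11) and Actn1 (0.12), an actinin, lay closest to Srebf2. Acsm3 (0.38) and Dusp1 (0.39), a phosphatase of MAP kinases, were among the 3 closest to Insig2. Srebf1 and Srebf2 were 1.25 apart and Insig1 and Insig2 2.24 apart.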

How the data were processed

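The deposited table gives, per the file headers, an FPKM and an estimated count for each gene and library. Per the labels' protocols, RNA was freed of ribosomal RNA with Ribo-Zero and sequenced from TruSeq Stranded Total RNA libraries. CASAVA 1.8, TopHat2 and the human build hg19 stand in the submitters' processing notes, while the identifiers are those of mouse. No counting program, annotation or use of strand is given in the sources used here. Coordinates and overlaps are from GENCODE M21 on GRCm38, matched by identifier. Within a library 90.6% to 91.1% of the deposited estimated counts above 0 were whole multiples, within 0.02, of a step of 0.84 to 1.18, so they were divided by it and rounded, and lines sharing a symbol were summed.

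Fasted and fed libraries were compared with edgeR 4.0.16 in R 4.3.3 (quasi-likelihood test, TMM, filterByExpr at a minimum count of 10, no covariate, two-sided). CPM use TMM-scaled totals, and a log2 CPM has a prior count of 2. The SE is the log2 fold change divided by the square root of F. FPKM were tested with limma 3.58.1 on log2(FPKM + 1), for genes with a mean FPKM of at least 0.5, as an alternative; a fold on that scale understates the change of low genes. DESeq2 1.42.0 was another. The tests were also run on simulated counts, where DESeq2 made many false calls. These counts were drawn with dispersions estimated by edgeR and independently for each gene, without the deviations shared by many genes of a fed library here. The simulation therefore does not rank the tests for these data. Calls made by DESeq2 and missed by edgeR, above and below, are uncertain because they depend on the test. The members and lists were chosen with earlier results of these data known. Named genes are all 9 regulators, up to 6 members of each target list with the lowest p and the 2 with the highest, and the 3 genes closest in pattern to Srebf1, Srebf2, Insig1 and Insig2. Some genes that this rule selects are not reported here. Cyp7a1 and Pnpla3 were named after their values were seen. Msmo1 and Tkfc were found under the older symbols Sc4mol and Dak by identifier. Protein sequences were not used here. The floor of 3 counts covers counting error only.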

Additional observations from a re-analysis of the deposited data

How the results depend on the processing

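No alternative turned the direction of Srebf1, Srebf2, Scap, Insig1, Insig2, Mbtps1, Mlxipl or Nr1h3, or of either log2 ratio; the cause of the shifts below was not tested. DESeq2 gave log2 fold changes of -3.08 for Srebf1, -0.91 for Srebf2 and 1.68 for Insig2, all past the threshold, and Srebf1 also passed with no filter on low counts (-3.07, adjusted p = 0.0418). Insig1 missed the threshold on FPKM with limma at pseudocounts of 1 (-2.53) and 0.1 (-2.58) and with no filter (-2.53). Leaving out single libraries gave log2 fold changes from -3.53 to -2.47 for Srebf1, -3.02 to -2.31 for Insig1, 1.36 to 2.13 for Insig2, -0.16 to 0.19 for Mbtps2 and -1.37 to -0.36 for Mlxipl. Mbtps2, which is near 0 throughout, changed sign with no filter (0.00).

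The 293 genes changed became 1049 in DESeq2, 149 and 111 on FPKM at pseudocounts of 1 and 0.1, and 93 on FPKM with no filter. They became 331 with upper-quartile factors, 300 with no filter on low counts and 312 with robust empirical Bayes. When a library was left out they became 3 to 754. The share of calls that were higher in fasted livers was 56.0% in edgeR, 46.5% with upper-quartile factors, 45.0% on FPKM at a pseudocount of 0.1 and 40.9% on FPKM with no filter. The 18 SREBP-2 targets called became 11 on FPKM with no filter and 0 to 20 without a library. The 5 SREBP-1c targets became 8 in DESeq2, 2 on FPKM at either pseudocount, 0 on FPKM with no filter and 0 to 11 without a library. The 1 ChREBP target became 5 in DESeq2, 2 with upper-quartile factors or no filter, 0 in the 3 fits on FPKM and 0 to 4 without a library. LXR targets went from 0 to 1 in DESeq2 and 0 to 1 without a library. Partners went from 0 to 1 in DESeq2, with upper-quartile factors or with robust empirical Bayes, and 0 to 2 without a library.

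The labels give both groups replicate numbers. Deviations from the group means correlated at -0.0739, 0.1828 and -0.1256 between same-numbered libraries 1, 2 and 3. The libraries numbered 2 were each other's best match, and those numbered 1 and 3 were not. With 3 libraries a group, such correlations cannot exclude a shared batch, and pairing was not assumed in the main fit. With the replicate block the calls were 29 over all genes, 11 SREBP-2 targets, 2 SREBP-1c targets and 0 ChREBP targets, and the log2 fold changes were -2.50 for Insig1, adjusted p = 0.0854, and 0.01 for Mbtps2. With 3 libraries a group, the exact permutation test of a ratio cannot go below 0.1.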

Other observations

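The deposited count per FPKM of a gene was not the same in each library for every gene. For Insig1 it was 36.2 to 36.3 in all 6 libraries. For Insig2 it was 22.5, 23.2 and 18.0 in the fed libraries and 22.2, 20.6 and 23.0 in the fasted libraries, and for Srebf1 43.6, 45.5 and 44.1 against 40.8, 35.5 and 42.7. The cause was not tested, and single transcripts were not analysed here.

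Of the SREBP-2 targets, 12 genes had promoter windows, 15 in all. A CCAAT box was matched in 11 of the 15, against 37.4% of all windows, an Sp1 box in 12 of the 15, against 35.7%, an E-box in 3 of the 15, against 7.15%, and the sterol element in 1 of the 15, against 1.24%. Matches are a description of letters and carry no test.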
